A study of Mus musculus with 2 samples.

Results

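The genes described here are 45 members of the Wnt pathway, among the 34650 gene names on a mouse expression array. They were chosen by name, with earlier results of these data known. The list holds the numbered Wnt ligands (19) and the Frizzled receptors with their co-receptors Lrp5 and Lrp6 (12). It also holds the secreted inhibitors of the Sfrp and Dkk families (8). The rest are the intracellular or membrane factors Axin2, Lef1, Tcf7, Nkd1, Nkd2 and Rnf43 (6). Together the 45 genes had 58 probes, which are spotted DNA strands of 60 bases. RNA came from mIMCD3, an established line of epithelial cells of the mouse kidney (inner medullary collecting duct), kept in medium with fetal bovine serum. Cells given the hormone FGF23 at 10 ng/mL for 4 h were compared with unstimulated cells of the same line. Each of 2 two-colour arrays held both RNAs, with FGF23 RNA in the dye Cy3 on array 1 and in Cy5 on array 2. Nothing in the labels ties the arrays to separate cultures. The p-values therefore cover only the spread between 2 arrays, which may be technical.

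Wnt proteins are secreted, lipid-modified signals that bind a Frizzled receptor together with Lrp5 or Lrp6. In the canonical branch this spares beta-catenin from destruction, and beta-catenin then works with Tcf and Lef factors on target genes, several of which (Axin2, Nkd1, Rnf43) feed back to limit the signal. Other branches act on cell polarity and movement. In the developing kidney, Wnt9b from the ureteric epithelium and Wnt4 in the mesenchyme drive nephron formation, Wnt11 marks the ureteric tips, and Wnt7b from the collecting duct is needed to build the medulla.

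No member passed the test for a difference between FGF23 and unstimulated cells, in either direction. The cells had above-background signal for 11 of the 12 receptor genes and 9 of the 19 ligands, but for 2 of the 8 secreted inhibitors. By the same rule, 26941 of all 55681 probes on the array had above-background signal. Neither probe of Axin2, the most widely used readout of beta-catenin activity, was above background in any channel. The ligand Wnt5b had the largest ratio, 1.39-fold higher with FGF23 on average and higher on both arrays, with an adjusted p of 0.108 in limma. Lef1, a nuclear partner of beta-catenin, had the lowest mean ratio of the members in the main processing, 1.17-fold lower, and was below unstimulated on both arrays (adjusted p = 0.9999, limma).

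Some of the statements below turn on which stretch of a transcript a probe reads. The probes in question are therefore shown 5′ to 3′ as spotted, with their mm9 positions. Wnt4 probe 1 (chr4:136851690-136852258, plus strand) covers more than its own length of genome, so it spans an intron. The pair of Wnt16 probes gave mean log2 ratios of opposite sign but near 0 (0.023 and -0.024), and had the same sign on each array. Wnt1 probe 1 was above background in no channel, whereas the other Wnt1 probe was above in all 4.
Wnt4 probe 1: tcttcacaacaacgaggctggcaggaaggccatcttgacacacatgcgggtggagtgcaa
Wnt16 probe 1 (chr6:22241135-22241194): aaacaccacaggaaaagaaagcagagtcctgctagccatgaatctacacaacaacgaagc
Wnt16 probe 2 (chr6:22247804-22247863): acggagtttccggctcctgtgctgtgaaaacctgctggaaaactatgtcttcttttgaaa
Wnt1 probe 1 (chr15:98623276-98623335): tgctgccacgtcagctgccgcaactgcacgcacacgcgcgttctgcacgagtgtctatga

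Promoter windows from RefSeq (GRCm38.p6), 250 bases before to 50 after a start, were found for 31 of the 45 members, with 39 windows. A form of the core letters bound by Tcf and Lef factors, CTTTGAT on either strand, was searched, and other forms were not. It was in 2 of these windows (5.13%), those of Wnt5b and Wnt11, against 3.73% of all 32851 windows. The members' windows had a median GC content of 66.3%, against 52.7% for all windows. Since Wnt5b had the largest ratio, the 250 bases before the start that holds its match (chr6:119449387-119449636, GRCm38.p6, minus strand) are shown, with the match in capitals. The other 2 of its 3 starts held no CTTTGAT, and the match is a description of letters, not a binding site.
Wnt5b: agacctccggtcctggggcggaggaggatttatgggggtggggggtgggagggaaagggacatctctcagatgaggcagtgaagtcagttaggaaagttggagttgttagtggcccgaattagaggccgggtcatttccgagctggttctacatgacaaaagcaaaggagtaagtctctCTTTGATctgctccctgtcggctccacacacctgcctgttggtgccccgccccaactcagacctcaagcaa

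Both arrays gave a like depth of signal. Per the scanner's flags, 48.2% and 48.7% of spots were well above background in Cy3, and 54.2% and 55.2% in Cy5. No member spot was saturated or an outlier. A probe counted as measured where the scanner software flagged the same condition, FGF23 or unstimulated, as well above background on both arrays, which left 19220 genes. All 5 epithelial markers (Cdh1, Epcam, Krt8, Krt18 and Krt19) were measured, and 7 of 11 collecting duct and ureteric markers, among them Aqp2, Hoxb7 and Pax2 but not Aqp3, Avpr2, Elf5 or Ret. Of the markers of other cell types, 3 of 5 for proximal tubule, 1 of 6 for fibroblasts, 2 of 5 for macrophages and 2 of 4 for endothelium were measured, and none of these markers passed the test.

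Detection differed widely among the members. Of the 45 genes, 26 were measured, 17 were above background in no channel, and Wnt10b and Wnt11 lay between. Of the 58 probes, 34 were measured, 33 of them in all 4 channels, and 21 were above in none. Over the array, 26941 of 55681 probes were measured. They stood for 19220 genes, where the array has 34650 gene names. In scanner units with the background included, the signal of the 34 measured probes ran from 56.3 to 1157 (median 173) for FGF23 and 75.6 to 2573 (median 353) for unstimulated RNA on array 1. On array 2 it ran from 82.1 to 2505 (median 341) for FGF23 and 48.0 to 1232 (median 167) for unstimulated RNA. The 24 other probes lay between 31.6 and 71.1 over all 4 channels, where the median local background was 40 in Cy3 and 37 in Cy5.

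**Figure D1:**
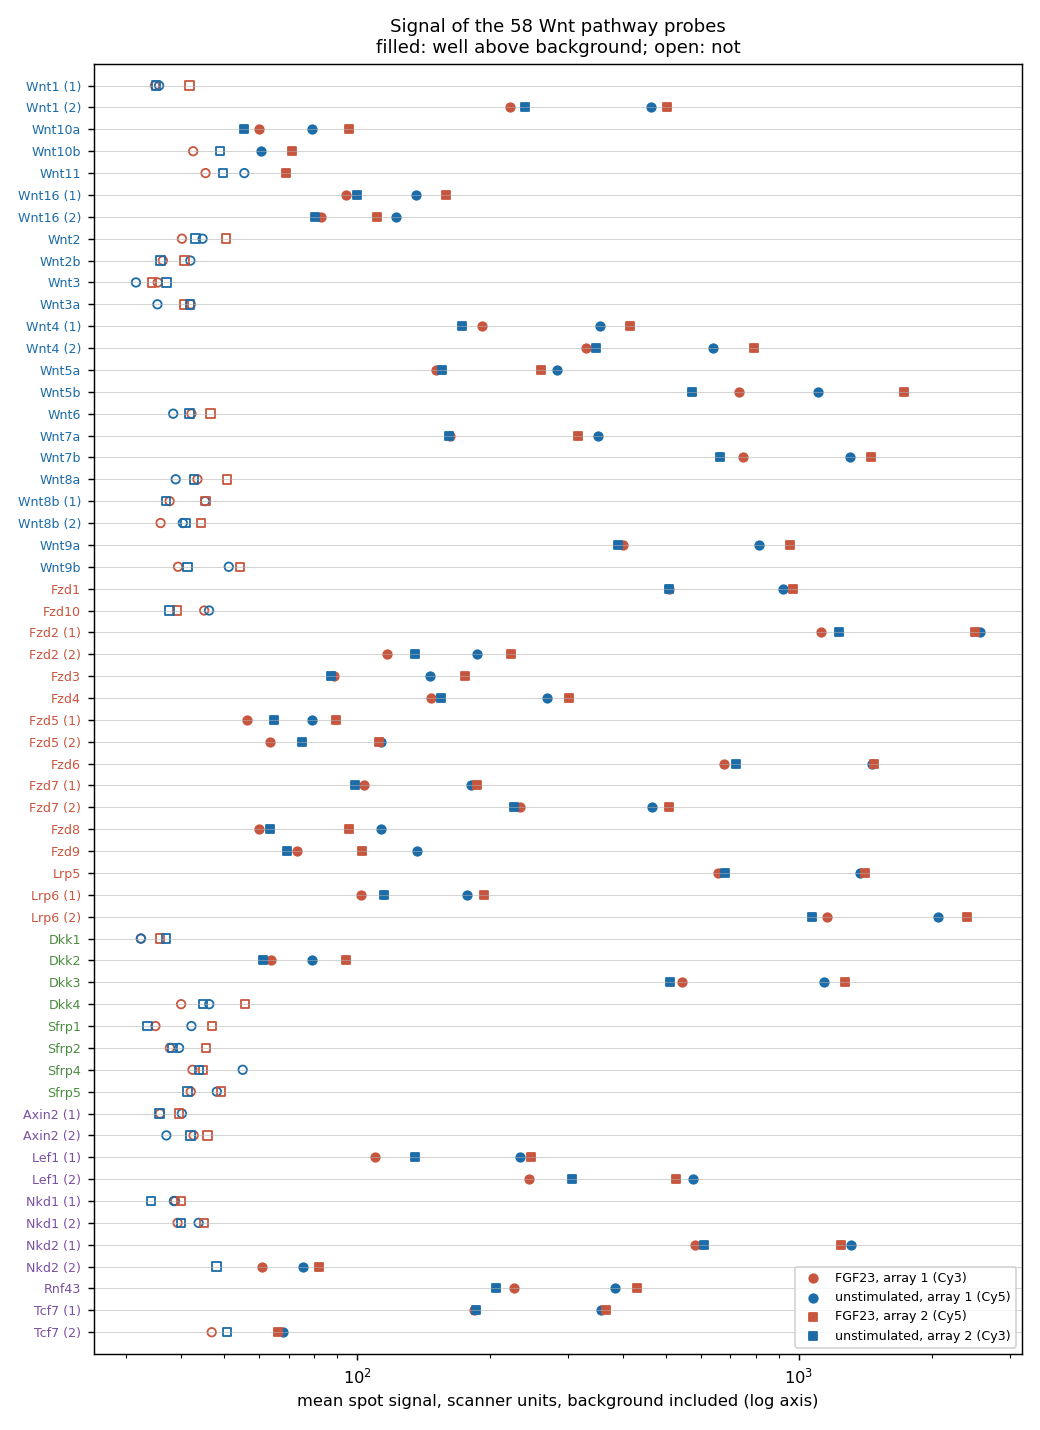
Mean spot signal of each of the 58 member probes, in scanner units with background included, on a log axis, for FGF23 (red) and unstimulated (blue) RNA on array 1 (circles) and array 2 (squares). Filled symbols are well above background and open symbols are not: most probes are filled in all 4 channels (33) or open in all 4 (21), and for measured probes the Cy5 channel of each array tends to be the brighter one before normalisation.

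Among the ligands, Wnt1, Wnt4, Wnt5a, Wnt5b, Wnt7a, Wnt7b, Wnt9a, Wnt10a and Wnt16 were measured. Wnt2, Wnt2b, Wnt3, Wnt3a, Wnt6, Wnt8a, Wnt8b and Wnt9b were above background in no channel. The probe of Wnt9b had signals of 39.3 (FGF23) and 51.2 (unstimulated) on array 1 and 54.3 and 41.3 on array 2, close to the local background. For Wnt11, 1 of 4 channels was above background, FGF23 on array 2 with a signal of 69.0, against 45.4 for FGF23 on array 1 and 55.5 and 49.7 for unstimulated RNA. Wnt10b was above in Cy5 on both arrays (60.6 unstimulated on array 1, 71.1 FGF23 on array 2) and in Cy3 on neither (42.6 and 48.9). Its detection thus followed the dye and not the treatment. No member was above background on both arrays in 1 condition alone.

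Some ligand genes that are neighbours in the genome differed in detection. With 9 of all 19 ligands measured, pairs that differ are also common among ligands that are not neighbours. On chromosome 1, the probes of Wnt10a and Wnt6 lie 19.1 kb apart. Wnt10a was measured in all 4 channels while Wnt6 was above background in none. The signals of Wnt10a were low, from 55.45 to 95.8 with the background included, where the median local background was 40 in Cy3 and 37 in Cy5. On chromosome 15, Wnt1 was measured and Wnt10b, 21.0 kb away, was not. On chromosome 11, Wnt9a was measured and Wnt3a, 85.3 kb away, was not, whereas of the pair Wnt3 and Wnt9b (90.1 kb apart) neither was measured. Such a contrast rests on 1 probe per gene in most cases: 32 of the 45 members had a single probe, and Wnt1 shows that probes of a gene can disagree.

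Receptors were nearly all measured. Fzd1 to Fzd9, Lrp5 and Lrp6 were above background in all 4 channels, and Fzd10 in none, with signals of 37.6 to 46.2. Of the genes listed as secreted inhibitors, the Sfrp and Dkk families, Dkk2 and Dkk3 were measured. Sfrp1, Sfrp2, Sfrp4, Sfrp5, Dkk1 and Dkk4 were above background in no channel. Of the feedback and nuclear factors, Lef1, Tcf7, Rnf43 and Nkd2 were measured. Axin2, a scaffold of the beta-catenin destruction complex, had signals of 35.7 to 40.1 for its first probe and 37.0 to 45.8 for its second. Nkd1, a Dishevelled-binding inhibitor, had 34.2 to 39.9 and 39.2 to 45.0. Both genes had no channel above background with either probe, so no ratio is given for them.

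In the comparison of FGF23 with unstimulated cells, limma with Benjamini-Hochberg adjustment over all 19220 genes called 0 of the 26 measured members higher and 0 lower at an adjusted p under 0.05, against 0.0468% (9 genes) and 0% of all genes. At an unadjusted p under 0.05, 1 member was higher (Wnt5b) and 1 lower (Lef1), against 2.6% and 1.31% of all genes. None was at least 1.5-fold higher or lower on both arrays, against 0.0312% and 0% of all genes. The log2 ratio was above 0 on both arrays in 8 of 26 members (background 23.9%), below 0 on both in 9 (background 22.3%) and of opposite sign in 9, which is 34.6% against 53.8% of all genes. The median log2 ratio of the members was 0.020 (-0.035 on array 1 and 0.040 on array 2), beside -0.00068 for all genes.

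**Figure D2:**
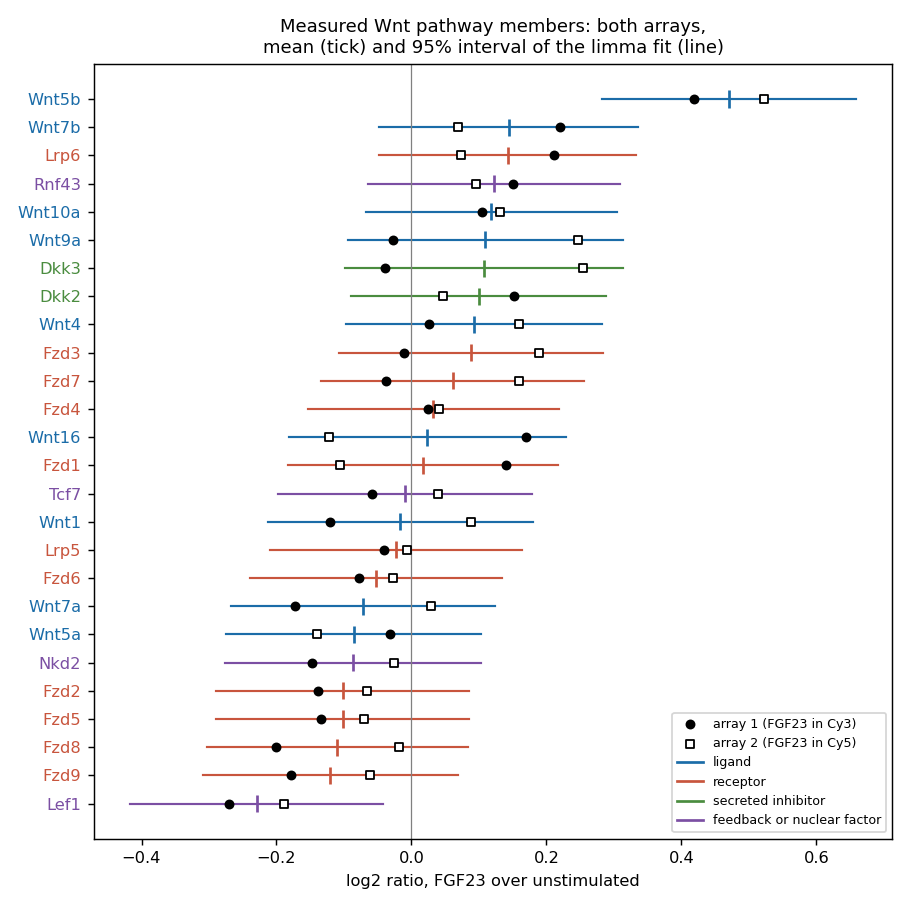
Log2 ratio of FGF23 over unstimulated cells for each of the 26 measured members, ordered by mean, with array 1 (filled circle), array 2 (open square), the mean (tick) and the 95% interval of the limma fit (line), coloured by role. The interval of Wnt5b (0.28 to 0.66) lies above 0 and that of Lef1 (-0.42 to -0.042) below 0, while those of the other 24 genes include 0.

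Wnt5b, a ligand known mainly for branches that do not need beta-catenin, had normalised intensities of 1090 with FGF23 and 815 without on array 1, and 1202 and 837 on array 2. Both FGF23 values were above both unstimulated values. Its log2 ratios were 0.42 and 0.52, with a mean of 0.47 ± 0.073 (SD, n = 2 arrays), which is 1.39-fold (95% interval 1.22 to 1.58). The unadjusted p was 0.000124 and the adjusted p 0.108 (limma). By mean ratio it was number 24 from the top of the 19220 genes. Its single probe reads chr6:119382550-119382609 (mm9, minus strand). In the authors' deposited table the log2 ratios of this probe were 0.47 and 0.54, with the scanner software's p of 0.0237 on array 1 and 0.0104 on array 2. When limma's prior was made robust and allowed to follow intensity, the adjusted p was 0.000164. Over all settings tried it ran from 0.000164 to 0.999997.

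The other ligands had mean log2 ratios from -0.086 to 0.14. Wnt7b, the collecting duct ligand, measured 1116 with FGF23 and 959 without on array 1, and 1019 and 972 on array 2. The conditions did not overlap, and the mean log2 ratio was 0.14 ± 0.11 (SD, n = 2; adjusted p = 0.9999, limma). Absence of overlap also held for Lrp5, at a mean of -0.023, and its share over all genes was not counted. Wnt10a, which is known from teeth and skin appendages, had 96.8 and 90.04 on array 1 and 97.3 and 88.9 on array 2. Its ratios were the most alike of the ligands, 0.10 and 0.13, with a mean of 0.12 ± 0.019 (SD, n = 2) at intensities near background. Its conditions did not overlap. The size depended on the background correction: the mean was 0.27 without the offset of 50 that the main processing adds to each signal (unadjusted p = 0.0303, adjusted p = 0.81, limma), and 0.38 with the scanner's processed log ratio (unadjusted p = 0.0147, adjusted p = 0.655). Wnt9a, a ligand of joint formation, had 599.6 and 611 on array 1 and 678 and 571 on array 2. Its log2 ratio was -0.028 on array 1 and 0.25 on array 2, so the arrays differed in sign.

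Further ligands were named because they have several probes. Wnt4 had log2 ratios of 0.026 and 0.16 with its brighter probe and 0.031 and 0.27 with the intron-spanning probe shown above, so both probes were higher with FGF23 on both arrays, and both were nearer 0 on array 1. In Wnt16 the probes shown above gave 0.17 and -0.12, and 0.17 and -0.22. The Wnt16 probes thus followed each other on each array, and the arrays went opposite ways. Wnt1, through its detected probe, had 337 and 366 on array 1 and 377 and 355 on array 2, with overlapping conditions and a mean log2 ratio of -0.017 ± 0.15 (SD, n = 2).

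The measured receptor genes had mean log2 ratios from -0.12 to 0.14 and a median of -0.023. Fzd2, Fzd5, Fzd6, Fzd8, Fzd9 and Lrp5 were below 0 on both arrays (6 of 11, against 22.3% of all genes), and Lrp6 and Fzd4 were above 0 on both. None passed the test, and the count is a description of 11 genes that were measured on the same arrays. Fzd9 had the lowest receptor mean in the main processing: 117 with FGF23 and 133 without on array 1, and 103 and 108 on array 2. Its mean log2 ratio was -0.12 ± 0.083 (SD, n = 2), and the conditions overlapped across arrays. Fzd8 measured 104.0 and 119.5 on array 1 but 99.5 and 100.8 on array 2, with log2 ratios of -0.20 and -0.018. It was lower with FGF23 within each array, and the conditions overlapped across arrays. Fzd5 had 107 and 118 on array 1 and 110.5 and 116 on array 2. Its FGF23 values were below its unstimulated values on both arrays, with a mean log2 ratio of -0.10 ± 0.045 (SD, n = 2). For these dim receptor probes the size and the order also depended on the background correction. Without the offset the means were -0.20 for Fzd5, -0.21 for Fzd8 and -0.22 for Fzd9. With the scanner's processed log ratio Fzd5 was at -0.33 (unadjusted p = 0.0263, adjusted p = 0.725, limma), Fzd8 at -0.31 and Fzd9 at -0.26, so that Fzd5 and Fzd8 were then below Lef1 (-0.27).

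The co-receptors Lrp5 and Lrp6, which share the role of binding Wnt beside a Frizzled, were both measured. Lrp5 had 975 with FGF23 and 1003 without on array 1, and 987 and 991 on array 2, a mean log2 ratio of -0.023 ± 0.024 (SD, n = 2) with a 95% interval of -0.21 to 0.16. Lrp6 had 1719 and 1484 on array 1 and 1634 and 1553 on array 2. Its brighter probe gave 0.14 ± 0.098 (SD, n = 2), the highest mean of the receptors, and its dimmer probe gave -0.064 ± 0.027. The sign of Lrp6 therefore depended on the probe.

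Both measured genes of the Dkk family had positive means. Dkk2, which binds the Lrp co-receptors, had 102 with FGF23 and 92.0 without on array 1, and 98.2 and 95.01 on array 2. The conditions did not overlap, which was not counted over all genes. The mean log2 ratio was 0.10 ± 0.074 (SD, n = 2), at intensities near background. It was 0.22 without the offset and 0.26 with the scanner's processed log ratio. Dkk3, a divergent member of the family, had 815 and 838 on array 1 and 890.4 and 746 on array 2. The arrays differed in sign (-0.040 and 0.25), and the conditions overlapped.

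Lef1, which carries beta-catenin to DNA and is itself a known target of the pathway, had 367 with FGF23 and 443 without on array 1, and 389.6 and 444 on array 2. Both FGF23 values were below both unstimulated values. Its mean log2 ratio was -0.23 ± 0.058 (SD, n = 2), 1.17-fold lower, with a 95% interval of -0.42 to -0.042. The unadjusted p was 0.0202 and the adjusted p 0.9999 (limma). Its other probe gave -0.26 on array 1 and 0.0029 on array 2, so the lower value on array 2 was seen with 1 of the 2 probes. In the authors' deposited table the p of the brighter probe was 0.169 and 0.209.

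The other measured factors had intervals that included 0. Rnf43, a ubiquitin ligase that removes Frizzled from the cell surface, had 341 with FGF23 and 307 without on array 1, and 327 and 306 on array 2, with a mean log2 ratio of 0.12 ± 0.039 (SD, n = 2). Its conditions did not overlap, and its 95% interval was -0.064 to 0.31. Absence of overlap was not counted over all genes, so it does not set apart the members for which it is given. It also held for the brightest probes of Lrp5, Lrp6, Nkd2, Fzd2 and Fzd6. Tcf7, the other nuclear partner among the members, had 277 and 289 on array 1 and 283 and 275 on array 2, with overlapping conditions and a mean log2 ratio of -0.010 ± 0.069 (SD, n = 2). Its second probe was above background in Cy5 on both arrays and in Cy3 on neither, as for Wnt10b. Nkd2, the paralogue of Nkd1, had 871 and 965 on array 1 and 874 and 889.7 on array 2. Its brighter probe had a mean of -0.086 ± 0.086 (SD, n = 2). Its dimmer probe, above background in 3 of 4 channels, had 0.19 ± 0.13. The authors' deposited log2 ratios of the dimmer probe were larger, 0.43 on array 1 and 1.12 on array 2. The scanner software's p for them was 0.226 and 0.0252. The size for this probe thus depended on the processing.

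Of the 13 members with a pair of probes, 8 had both measured. The probes' mean log2 ratios had opposite signs in 3 of these 8, Lrp6, Nkd2 and Wnt16. Those of Wnt16 were near 0 (0.023 and -0.024). For the 24 measured members other than Wnt5b and Lef1, the 95% intervals of the log2 ratio lay within -0.31 and 0.34. That range corresponds to between 1.24-fold lower and 1.26-fold higher. These bounds hold for the main processing only, whose offset draws the ratios of dim probes towards 0. With the scanner's processed log ratio the means of the same 24 genes alone ran from -0.33 (Fzd5, 1.26-fold lower) to 0.38 (Wnt10a, 1.30-fold higher). That range takes the brightest probe of each gene and leaves out dimmer probes, such as that of Nkd2. The file headers give a slope of 0.851 and 0.852 for spike-in controls (measured against known log ratios), which means that the scanner software's ratios were compressed. The slope was not computed for the main processing, so it does not give the compression of the intervals above.

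**Figure D3:**
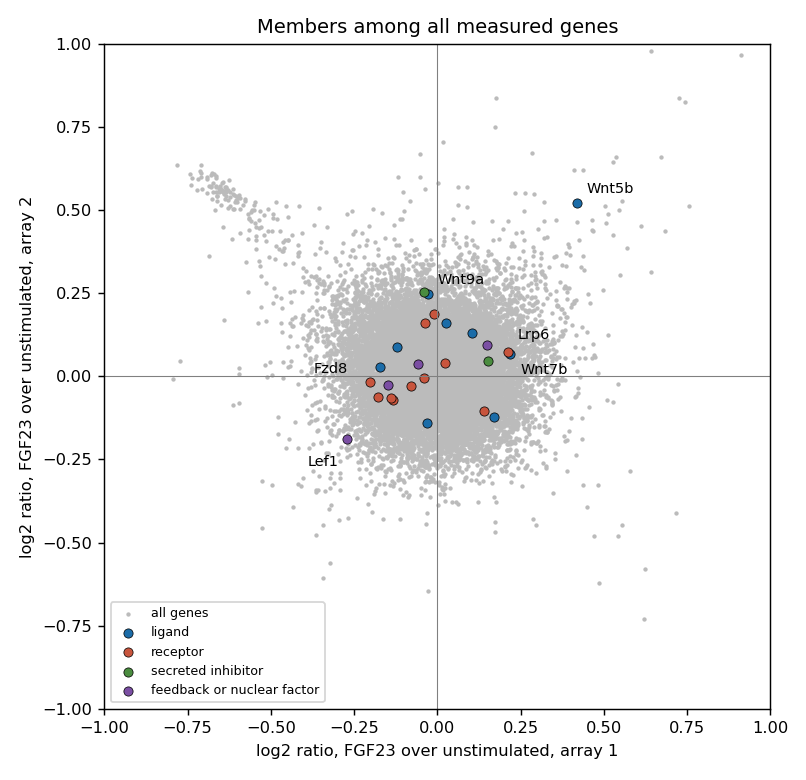
Log2 ratio of FGF23 over unstimulated cells on array 1 (horizontal) against array 2 (vertical) for all 19220 genes (grey) and the 26 measured members, coloured by role; 3 genes lie outside the plotted range. Wnt5b (0.42 and 0.52) stands clear of the other members, Lef1 (-0.27 and -0.19) is the lowest member along both axes, and the rest lie within the cloud of all genes.

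Beyond the members, 92 further pathway genes were listed by role from textbook knowledge, with earlier results of these data known. Of these, 91 were on the array and 66 measured. None passed the test, against 0.0468% higher and 0% lower of all genes. At an unadjusted p under 0.05 (limma), 1 was higher and 2 were lower, against 2.6% and 1.31% of all genes. The median log2 ratio of the 66 genes was 0.025. Of 11 receptor-complex genes, 7 were measured, with Lgr4, a receptor for R-spondins, at 0.14 ± 0.040 and the proteoglycan Gpc4 at -0.11 ± 0.057 (SD, n = 2). The stem cell receptor Lgr5 and the receptors Ror1 and Ror2 were not measured. Of 6 genes for ligand making and R-spondins, 3 were measured, among them Wls, the carrier of Wnt proteins to the cell surface (0.037 ± 0.13), and Rspo3 (-0.048 ± 0.16).

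Other inhibitors were largely not measured, as for the Sfrp and Dkk families. Of 11, 4 were measured, with Notum, which removes the lipid from Wnt proteins, at -0.017 ± 0.14 and Dkkl1 at 0.018 ± 0.055 (SD, n = 2). Wif1, Sost, Sostdc1, Apcdd1, Shisa2, Frzb and Draxin were not measured. By contrast 21 of 23 genes of the beta-catenin destruction complex and Dishevelled were measured, and 16 of these 21 had ratios of opposite sign on the arrays (53.8% of all genes did). The kinase Gsk3b, which marks beta-catenin for destruction, was at 0.14 ± 0.072 and Frat1, which binds it, at 0.16 ± 0.23. In the nuclear complex 12 of 13 were measured, with Tbl1xr1 at 0.18 ± 0.014 and Tcf7l2, a Tcf factor, at 0.14 ± 0.011 by their brightest probes. The dimmer probe of Tbl1xr1 had -0.11 and 0.21 on the arrays, and the dimmer probes of Tcf7l2 had means of 0.052 and 0.0060. Of the 12 planar polarity genes, 9 were measured, with the cadherin Celsr1 at 0.22 ± 0.13 (unadjusted p = 0.0308, adjusted p = 0.9999, limma) and Invs at 0.11 ± 0.019.

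Among 16 further genes known as beta-catenin targets in various tissues, 10 were measured. Of these, 6 were below 0 on both arrays (22.3% of all genes were), and 2 were above 0 on both (23.9% of all genes). None passed the test. Ccnd1, the cyclin D1 gene, had intensities of 1652 with FGF23 and 2379 without on array 1, and 1735 and 2378 on array 2. Both FGF23 values were below both unstimulated values, with a mean log2 ratio of -0.49 ± 0.050 (SD, n = 2), 1.40-fold lower, and an adjusted p of 0.0837 (limma). Averaging the probes of each gene, or a robust prior that follows intensity, gave it an adjusted p under 0.05 (limma). Ccnd1 had a single measured probe, so averaging left its own ratio unchanged and altered only the values of other genes. Cd44, an adhesion receptor, had 1355 and 1592 on array 1 and 1285 and 1588 on array 2, with a mean of -0.27 ± 0.052 (adjusted p = 0.917, limma). Its 3 dimmer probes had means of -0.21, -0.16 and -0.048. Both genes are also regulated by pathways other than Wnt. Sp5, a transcription factor gene often read as a Wnt target, had log2 ratios of 0.15 and 0.22, above 0 on both arrays. Its intensities were low, 115 with FGF23 and 103 without on array 1, and 112 and 96.2 on array 2. Whether the size for Sp5 depends on the background correction was not tested.

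**Figure D4:**
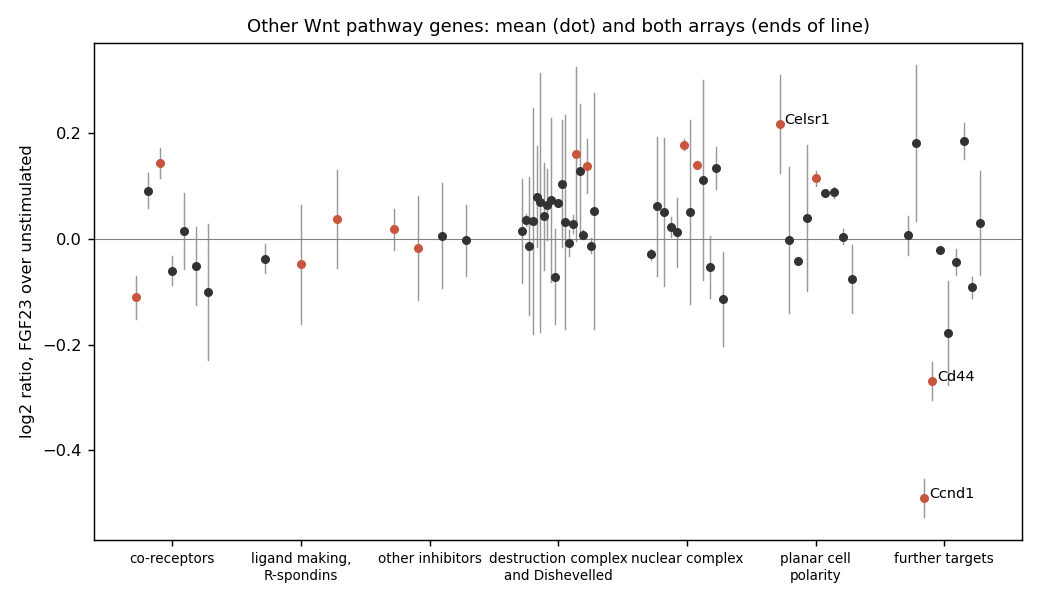
Log2 ratio of FGF23 over unstimulated cells for the 66 measured further pathway genes, grouped by list, with the mean of both arrays (dot) and the value of each array (ends of the line); red dots are the 2 genes per list with the largest mean in either direction. Most means lie between -0.2 and 0.2, Celsr1 is the highest at 0.22, and Ccnd1 (-0.49) and Cd44 (-0.27) are the lowest.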

How the data were processed

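The deposited scanner output gave mean intensities per spot and dye in linear scanner units, a log10 ratio of Cy5 over Cy3 and the software's p-value of that ratio, which the file headers credit to Feature Extraction 11.5.1.1. Probe positions were on mm9 per the file headers; exon positions were not analysed here.

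Mean signals were background-corrected (normexp, with an offset of 50 that draws ratios of dim probes towards 0), normalised within arrays by loess with control spots at weight 0 and turned to log2 FGF23 over unstimulated, in limma 3.58.1 (R 4.3.3). Intensities per condition were also scaled between arrays (Aquantile). Outlier and control spots were left out. Of 55681 probes, 26941 were kept, and the brightest stood for its gene (19220 genes). The test was lmFit and eBayes with Benjamini-Hochberg adjustment at 0.05. With 1 residual degree of freedom and 11.9 drawn from all genes, p-values rest mostly on the shared spread. The test was also run on simulated data drawn from its own fitted spread, so that run does not check this spread.

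The members and lists were chosen with earlier results of these data known. Values were given for up to 4 measured members per role with the largest mean ratio, for the named feedback factors and for Lrp5 and Lrp6; Wnt1, Wnt4, Wnt16 and Sp5, and the undetected probes, were named after their values were seen. Of the further pathway genes, 2 per list were named. The alternatives were other background corrections, normalisations, filters, probe rules and spread estimates, and each array alone. The number of arrays limits the precision.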

Additional observations from a re-analysis of the deposited data

How the results depend on the processing

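Over all genes, 9 were called higher and 0 lower. The count of higher genes was 5 with a normexp offset of 0, 0 with Agilent's processed log ratio, 0 with median centring, 16 with the mean of a gene's probes and 59 with an intensity trend and robust prior. The count of lower genes was 1 with the mean of probes and 20 with the trend and robust prior. Among the members, 1 (Wnt5b) was called higher, under the trend and robust prior only. One further pathway gene, Ccnd1, was called lower with the mean of probes (1) and with the trend and robust prior (1). With no filter all 45 members counted as measured. The members' median log2 ratio was between -0.035 and 0.040 on single arrays. Nkd2 (0.052) and Wnt16 (-4.94e-05) changed sign with the mean of probes, where a second probe of opposite sign enters the mean. Of the other single-gene values under changed processing, 179 kept their sign and their side of the threshold, but not all kept their size. Without the offset, and with Agilent's processed log ratio, 7 members (Dkk2, Fzd3, Fzd5, Fzd8, Fzd9, Wnt10a and Wnt16) had ratios more than 1.5 times as large; with the mean of probes, 2 (Fzd2 and Lrp6) had ratios smaller by more than 1.5 times. Median centring left array medians of -0.57 and 0.56 over all genes. The cause of the other changes was not tested. The test used the ratio within each array, so both RNAs of an array were paired in it. No further pairing was possible because there is 1 group. For the members not above background, signal over background limits any statement on FGF23.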
